A study of Mus musculus with 32 samples.

Results

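The genes described here are 10 members of the pathway that turns arachidonic acid into prostaglandins and leukotrienes, Pla2g4a, Ptgs1, Ptgs2, Ptges, Tbxas1, Ptger2, Ptger4, Alox5, Alox5ap and Ltc4s. They were chosen by name, as the probes that carry one of these gene symbols on the array, with earlier results of these data known. There were 12 such probes among 55681, and all 10 genes were among the 16033 genes tested. Values are log2 of the scanner signal after quantile normalization between arrays, and a gene is called changed when its adjusted p was under 0.05 with limma.

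The study exposed bone marrow-derived macrophages (BMDMs) to signals that can start necroptosis, a form of cell death that runs through the kinase RipK1. Cells came from WT C57BL/6 mice or from Ifnar1-/- mice, in which the receptor for type I interferons is missing a chain, and were grown in M-CSF. Besides untreated cells, 7 exposures of 6 h were used, LPS, zVAD and their mixture LPS+zVAD, then IFNβ and IFNβ+zVAD, and each mixture with Nec-1, which makes 16 groups of 2 arrays each. The labels do not say that the arrays of a group came from separate animals or cultures, so p-values measure the spread between these samples, which may be technical. LPS is a bacterial ligand of TLR4, zVAD inhibits caspases, and Nec-1 inhibits RipK1. The doses in the labels are 100 ng/mL for LPS and 1000 U/mL for IFNβ, and other sources of the study give other doses. No group received Nec-1 alone or Nec-1 with zVAD alone, so the action of Nec-1 by itself was not measured.

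Cytosolic phospholipase A2, the product of Pla2g4a, frees arachidonic acid from membranes. Cyclooxygenases convert it to prostaglandin H2, and terminal synthases turn this into prostaglandin E2, thromboxane and others. Along the other branch, 5-lipoxygenase with its partner protein FLAP, the product of Alox5ap, makes leukotrienes. In macrophages Ptgs1 is known as the constitutive cyclooxygenase gene and Ptgs2 as the inducible one.

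The 32 arrays lay on 4 slides, each with the 8 treatments of 1 genotype and 1 replicate number. Within a treatment, genotype and slide therefore cannot be told apart, whereas a change with treatment within a genotype can. After each gene was centred, 21 of the 32 arrays were most like the mean of another group of their genotype. Their own group was represented by its other array alone. The 2 WT zVAD arrays correlated at 0.412 with each other, and at 0.790 and 0.507 with the mean of WT untreated. The arrays of Ifnar1-/- LPS+zVAD+Nec-1 were the least alike. Array 1 correlated at 0.712 with the mean of Ifnar1-/- LPS. Array 2 correlated at 0.142 with array 1, and at 0.886 with the mean of Ifnar1-/- IFNβ+zVAD+Nec-1. Changes of tested probes called for this group are given with and without array 2. The pair also widens the shared estimate of the spread, and fits without it are given for part of the other results. All 8 macrophage markers (among them Csf1r, Lyz2 and Cd68) were well above background on all arrays. The Ifnar1 probe read 9.02 to 14.76 on the WT arrays and 11.16 to 12.44 on the Ifnar1-/- arrays, well above background on all 16 of each. It did not separate the genotypes, and where it lies relative to the deletion is not given in the sources used here. These are whole cultures, in which fewer cells of a type and less RNA per cell cannot be told apart.

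Promoter sequences are shown for Ptgs2 and Ptges, which rose with LPS, and for Ptgs1, which fell. Each runs from 250 bases before to 50 bases after the RefSeq start (GRCm38.p6), 5′ to 3′ on the strand of the gene. They lie at chr1:150099781-150100080 (+ strand), chr2:30903248-30903547 (- strand) and chr2:36230176-36230475 (+ strand). Capitals mark matches, on either strand, to any of the motifs named in the next paragraph.
Ptgs2: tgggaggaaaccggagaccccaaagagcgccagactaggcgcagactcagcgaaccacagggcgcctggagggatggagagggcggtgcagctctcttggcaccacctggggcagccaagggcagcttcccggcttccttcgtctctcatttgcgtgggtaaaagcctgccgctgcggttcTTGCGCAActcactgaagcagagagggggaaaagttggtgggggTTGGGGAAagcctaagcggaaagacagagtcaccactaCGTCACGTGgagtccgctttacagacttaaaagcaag
Ptges: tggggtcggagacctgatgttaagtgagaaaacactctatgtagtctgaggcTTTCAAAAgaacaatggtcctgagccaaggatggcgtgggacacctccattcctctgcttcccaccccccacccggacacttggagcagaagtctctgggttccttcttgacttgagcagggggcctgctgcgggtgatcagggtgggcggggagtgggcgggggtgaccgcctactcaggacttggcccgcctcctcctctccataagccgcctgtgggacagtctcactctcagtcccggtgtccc
Ptgs1: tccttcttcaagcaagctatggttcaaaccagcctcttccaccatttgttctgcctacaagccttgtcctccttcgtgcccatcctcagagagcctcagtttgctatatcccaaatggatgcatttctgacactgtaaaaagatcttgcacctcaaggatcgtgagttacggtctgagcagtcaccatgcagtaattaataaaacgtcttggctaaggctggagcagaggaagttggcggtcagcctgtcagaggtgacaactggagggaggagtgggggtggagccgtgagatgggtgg

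The motifs searched were the TATA box (TATAAA), the E-box (CACGTG), the core of the cAMP response element (CGTCA) and its full form (TGACGTCA), the AP-1 site (TGANTCA), the C/EBP site (TTNNGNAA), the ISRE (GAAANNGAAA) and the NF-κB site. The Ptgs2 window held 1 E-box, which 7.15% of all 32851 promoters hold, and it overlapped a cAMP response element core, which 20.8% hold. It also held 3 matches to the C/EBP site, which 40.7% of promoters hold, and 2 of these were the same letters read on both strands. The Ptges window held 1 C/EBP match, and the Ptgs1 window held none of these motifs. No window of the 9 members with an entry held an ISRE or NF-κB match, which 3.44% and 8.46% of promoters hold. A match is a description of the letters, and sites outside the window were not searched.

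LPS changed most of these genes, and zVAD by itself changed none by the test. In WT cells LPS changed 8 of the 10 members, 4 higher and 4 lower, where 41.2% of all genes tested changed. Pla2g4a, Ptgs2, Ptges and Ptger4 rose, and Ptgs1, Tbxas1, Alox5 and Alox5ap fell. In Ifnar1-/- cells it changed the same genes except Alox5 (24.8% of all genes). LPS+zVAD changed 7 in WT (51% of all genes) and 7 in Ifnar1-/- (28.2%), each against untreated cells. IFNβ changed 3 in WT (35.3%) and none in Ifnar1-/- (0%), where 0 members and 253 of all genes had an unadjusted p under 0.05. IFNβ+zVAD changed 7 in WT (37.6%) and none in Ifnar1-/- (0.00624%, 1 gene), where 2 members and 585 of all genes had an unadjusted p under 0.05. The share of members changed stood above that of all genes with LPS and LPS+zVAD in both genotypes and with IFNβ+zVAD in WT, and near it with IFNβ in WT. Because the members were chosen with earlier results of these data known, these shares are a description and not a test. When only the arrays of the groups compared were fitted, IFNβ+zVAD changed 3 members in WT, and the share of all genes in that fit was not counted. The main counts for IFNβ+zVAD in WT and for LPS+zVAD in both genotypes were lower whenever a single array of the groups compared was left out. zVAD alone changed none of them in WT, where 1 gene of all passed (0.00624%), and none in Ifnar1-/- (0%). An unadjusted p under 0.05 with zVAD alone was found for 2 members in WT, beside 901 of the 16033 genes. In Ifnar1-/- it was found for 0 members, beside 61 genes. The median log2 difference of the members with LPS in WT was -1.14, against -0.08 over all genes.

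Adding zVAD to LPS lowered 3 members in WT (34.6% of all genes changed) and 1 in Ifnar1-/- (8.25%). Adding zVAD to IFNβ changed none in WT (0% of all genes) or Ifnar1-/- (0.00624%). An unadjusted p under 0.05 was found there for 0 members in WT and 2 in Ifnar1-/-, beside 637 and 370 of all genes. Nec-1 added to LPS+zVAD changed 2 members in WT (28.5%) and 3 in Ifnar1-/- (18.8%). Nec-1 added to IFNβ+zVAD changed none in WT (0%), with 2 at an unadjusted p under 0.05 (613 of all genes), and 1 in Ifnar1-/- (1.58%). The replicate numbers mark slides, and with the slide as a block IFNβ changed 7 members in WT (49.2% of all genes), and Nec-1 on LPS+zVAD 4 in WT (42.3%) and 5 in Ifnar1-/- (35%).

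**Figure D1:**
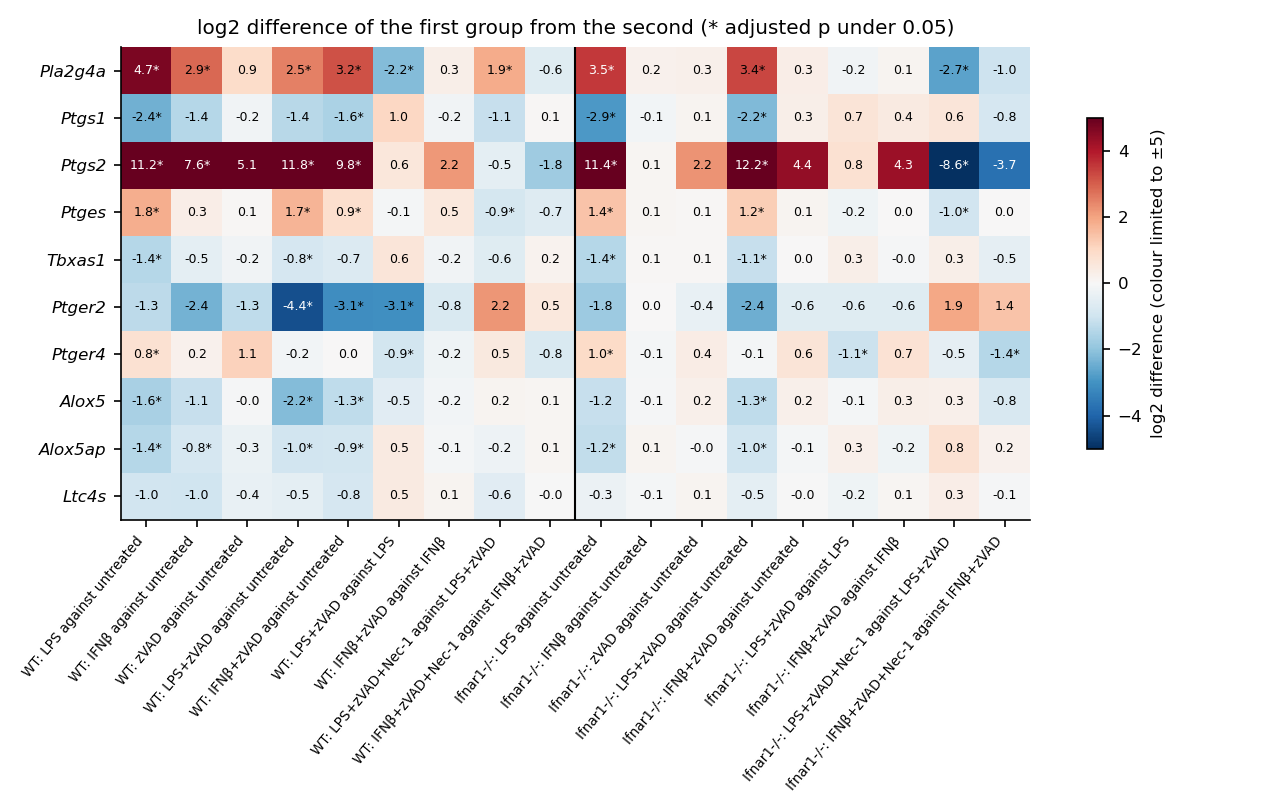
Log2 differences of the 10 genes (rows) in the 18 comparisons within a genotype (columns, WT left of the line and Ifnar1-/- right), in colour and as numbers, with a star where the adjusted p was under 0.05. In the LPS columns of both genotypes Ptgs2, Pla2g4a, Ptges and Ptger4 have stars and positive values and Ptgs1, Tbxas1 and Alox5ap stars and negative values, while the zVAD-alone columns hold no star.

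Ptgs2, which encodes the inducible cyclooxygenase, spanned the widest range of the 10, from 4.08 to 16.72 on the log2 scale. It was read by 1 probe in 10 spots, at chr1:151954744-151954803 on mm9 (+ strand). Untreated WT cells gave 4.08 and 5.44, and untreated Ifnar1-/- cells 4.80 and 4.26, where 1 of the 2 arrays was well above background. Both WT arrays were well above background, a mark the scanner software sets for each spot.

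LPS raised Ptgs2 in both genotypes. WT LPS gave 16.41 and 15.58, and Ifnar1-/- LPS 15.78 and 16.09. The log2 difference from untreated was 11.23 ± 1.44 (SE, adjusted p = 7.70e-06) in WT and 11.40 ± 1.44 (adjusted p = 4.98e-05) in Ifnar1-/-. The difference between the genotypes in this change was 0.17 (95% interval -4.11 to 4.45).

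IFNβ raised Ptgs2 in WT cells. WT IFNβ gave 12.03 and 12.74, whereas Ifnar1-/- IFNβ gave 4.51 and 4.76, not well above background on either array. In WT the log2 difference was 7.63 ± 1.44 (adjusted p = 0.000422), or 198-fold, with 7.95 and 7.30 within the slides. In Ifnar1-/- neither IFNβ array and 1 of the 2 untreated arrays were well above background, so the change there has no measured size. The fit put the difference between the changes at -7.52 ± 2.04 (adjusted p = 0.0144), a value that rests in part on those background signals, and 18.8% of all genes differed in this comparison, 2 of the members among them. Without array 1 of untreated WT, or array 1 of untreated Ifnar1-/-, its adjusted p was 0.0592 and 0.0524.

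With zVAD alone the Ptgs2 signal was higher than untreated on both WT slides, without passing the test over all genes. WT zVAD gave 8.89 and 10.74, both well above background and above both untreated arrays. The difference was 4.81 on slide 1 and 5.29 on slide 2, and 5.05 ± 1.44 in the fit, or 33.2-fold (95% interval of the log2 difference 2.03 to 8.08). Its adjusted p was 0.466. Ptgs2 passed without array 2 of Ifnar1-/- LPS+zVAD+Nec-1, or without both arrays of that group, which take no part in the comparison except through the spread (SE 0.84, adjusted p = 0.0279), and 31 of all genes then passed without both. Ptgs2 did not pass with the slide as a block, with the other scalings, with the authors' table or with the groups compared fitted alone. Leaving out any of the arrays compared gave 4.13 to 5.97, and it did not pass in those fits either.

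In Ifnar1-/- cells zVAD gave 8.40 and 5.12, both well above background. The first array was far above the untreated cells and the second just above the higher of them. The log2 difference was 2.23 ± 1.44 (adjusted p = 1.0), and 0.59 to 3.87 when an array was left out. The change with zVAD differed between the genotypes by -2.82 ± 2.04 (95% interval -7.10 to 1.46), and no gene of all passed in this comparison (0% changed, 0 members). At an unadjusted p under 0.05 there was 1 member, Ptger4, beside 163 of all genes.

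With LPS present, zVAD left Ptgs2 at the top of its range. WT LPS+zVAD gave 16.55 and 16.57, and Ifnar1-/- LPS+zVAD 16.67 and 16.72. Both pairs lay above the LPS arrays of their genotype, by 0.57 ± 1.44 in WT (95% interval -2.46 to 3.59) and 0.76 ± 1.44 in Ifnar1-/- (-2.26 to 3.79), neither of which passed the test. The change with zVAD in WT differed by -4.48 ± 2.04 with LPS against without it (adjusted p = 0.129), where 21.5% of all genes passed. Without both Ifnar1-/- LPS+zVAD+Nec-1 arrays its adjusted p was 0.00992. On the change with LPS+zVAD the genotypes differed by 0.37 (95% interval -3.91 to 4.64). In this comparison 16.1% of all genes and 0 members passed, and 6.64% of all genes and 0 members for the change with LPS alone. At an unadjusted p under 0.05 there were 0 members in either, beside 4591 and 3118 of all genes.

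With IFNβ present, zVAD was followed by higher Ptgs2 signals in both genotypes. WT IFNβ+zVAD gave 13.43 and 15.71, above both WT IFNβ arrays, a log2 difference of 2.18 ± 1.44 (adjusted p = 1.0). Ifnar1-/- IFNβ+zVAD gave 9.24 and 8.61, where Ifnar1-/- IFNβ was not well above background. This is at least 12.8-fold higher (adjusted p = 1.0), taking for each dim array the higher of its own signal and the lowest signal that passed as well above background. The zVAD change in WT differed by -2.87 ± 2.04 with and without IFNβ (adjusted p = 1.0), and 0% of all genes passed there. At an unadjusted p under 0.05 there was 1 member, Ptger4, beside 254 of all genes.

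Against untreated cells, IFNβ+zVAD raised Ptgs2 by 9.81 ± 1.44 in WT (adjusted p = 3.33e-05), and the difference was 4.40 ± 1.44 in Ifnar1-/- (adjusted p = 0.899). The genotypes differed by -5.41 ± 2.04 (adjusted p = 0.071), where 19.3% of all genes and 1 member passed. With the slide as a block the adjusted p was 0.0302, and without both Ifnar1-/- LPS+zVAD+Nec-1 arrays it was 0.00306.

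**Figure D2:**
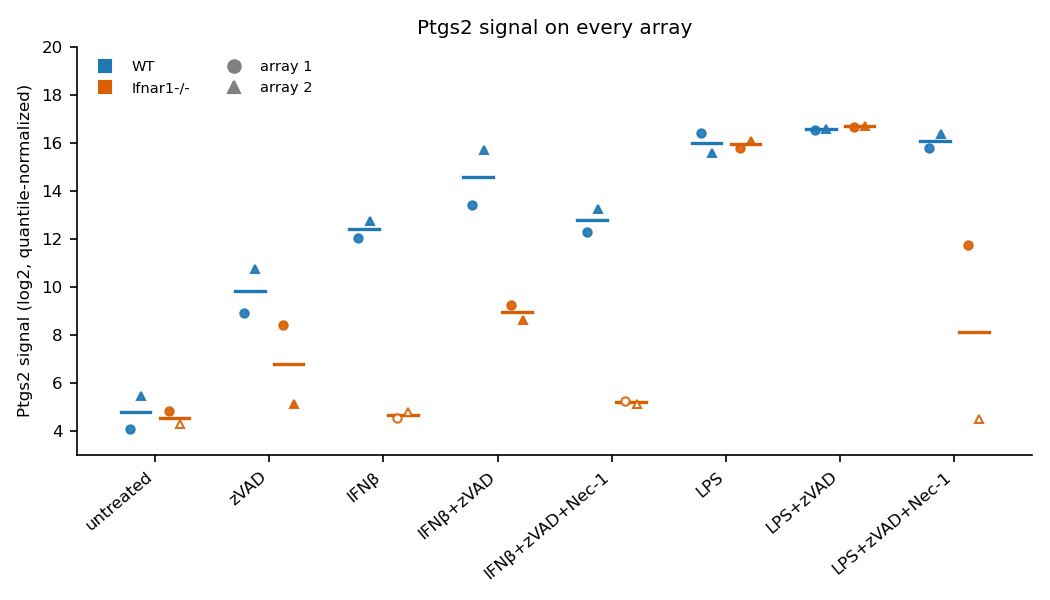
Ptgs2 signal (log2, quantile-normalized) on each of the 32 arrays, by treatment and genotype. Bars are means of 2 arrays, and open symbols are arrays on which the probe was not well above background. WT zVAD lies between untreated and IFNβ, LPS arrays of both genotypes lie between 15.58 and 16.41, and the 2 Ifnar1-/- LPS+zVAD+Nec-1 arrays lie at 11.74 and 4.50.

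Nec-1 did not change Ptgs2 by the test in WT. WT LPS+zVAD+Nec-1 gave 15.78 and 16.36, and WT IFNβ+zVAD+Nec-1 12.29 and 13.26, both of the latter below both WT IFNβ+zVAD arrays. The log2 differences were -0.49 ± 1.44 (95% interval -3.51 to 2.54) and -1.79 ± 1.44 (-4.82 to 1.24), and neither passed. In Ifnar1-/- cells IFNβ+zVAD+Nec-1 gave 5.24 and 5.13, not well above background, which is at least 10.6-fold below IFNβ+zVAD (adjusted p = 0.316). Without the group Ifnar1-/- LPS+zVAD+Nec-1, or without array 2 of it alone, the adjusted p of this difference was 0.0176. That group itself read 11.74 and 4.50. Ptgs2 there was -8.58 ± 1.44 from LPS+zVAD (adjusted p = 0.00066) with both arrays, and -4.96 ± 1.03 with array 1 alone (adjusted p = 0.00575, the lone array being assumed to vary like the other groups).

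In order of mean level, the 5 groups with LPS other than Ifnar1-/- LPS+zVAD+Nec-1 came first, from 16.70 to 15.93, and only the last 3 of these overlapped. Then came WT IFNβ+zVAD at 14.57. WT IFNβ+zVAD+Nec-1 and WT IFNβ followed at 12.78 and 12.39 and overlapped. WT zVAD at 9.81 overlapped Ifnar1-/- IFNβ+zVAD at 8.93, and every further neighbour in the order overlapped the next.

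Pla2g4a, which encodes the phospholipase that supplies the cyclooxygenases, followed Ptgs2 closely, with a Pearson correlation of 0.931 over the 16 group means. Their probes lie 277870 bases apart on chromosome 1 (mm9), on opposite strands. Both share arrays, and the correlation is a description. Untreated WT gave 10.01 and 10.01 and WT LPS 14.61 and 14.83, while untreated Ifnar1-/- gave 10.38 and 10.62 and Ifnar1-/- LPS 14.00 and 14.08. LPS raised it by 4.71 ± 0.49 in WT (adjusted p = 9.30e-07) and 3.54 ± 0.49 in Ifnar1-/- (adjusted p = 9.40e-05).

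IFNβ raised Pla2g4a in WT to 13.03 and 12.77, by 2.89 ± 0.49 (adjusted p = 0.000153), whereas the Ifnar1-/- IFNβ arrays read 10.79 and 10.64. The difference between the genotypes was -2.67 ± 0.69 (adjusted p = 0.011). The same held for IFNβ+zVAD, with 13.04 and 13.34 in WT and 10.97 and 10.71 in Ifnar1-/-. There the genotypes differed by -2.84 ± 0.69 (adjusted p = 0.00738).

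Pla2g4a fell when zVAD was added to LPS in WT. WT LPS+zVAD gave 12.88 and 12.18, below both LPS arrays, a log2 difference of -2.19 ± 0.49 (adjusted p = 0.00176), with -1.73 and -2.65 within the slides. Nec-1 raised it to 14.12 and 14.70, by 1.87 ± 0.49 (adjusted p = 0.00708). Leaving out array 2 of WT LPS+zVAD or array 2 of WT LPS+zVAD+Nec-1 took that adjusted p to 0.0982 and 0.0779. In Ifnar1-/- cells LPS+zVAD gave 13.81 and 13.91, close to LPS. zVAD alone gave 10.44 and 11.38 in WT, above the untreated arrays (0.90 ± 0.49, adjusted p = 0.937). The change with zVAD in WT was lower with LPS than without it by -3.09 ± 0.69 (adjusted p = 0.00399). In Ifnar1-/-, LPS+zVAD+Nec-1 gave 12.41 and 9.92, -2.69 ± 0.49 from LPS+zVAD (adjusted p = 0.00119), and -1.44 ± 0.34 without array 2 (adjusted p = 0.0119).

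Ptges, the synthase that acts after the cyclooxygenases to make prostaglandin E2, had 2 probes whose changes differed in size. The brighter one, at chr2:30744995-30745054 on mm9 (- strand), was the one tested. It gave 14.73 and 14.72 in untreated WT and 16.13 and 16.91 with LPS, a rise of 1.80 ± 0.29 (adjusted p = 7.35e-05), and rose by 1.44 ± 0.29 in Ifnar1-/- (adjusted p = 0.00133). The dimmer probe, at chr2:30748214-30748273, gave 7.30 and 6.62 in untreated WT and 14.18 and 14.85 with LPS, a rise of 7.56 ± 0.86 in a fit over all retained probes (adjusted p = 2.23e-06). In Ifnar1-/- it rose by 6.69 ± 0.86 (adjusted p = 6.20e-05). Both probes were well above background on all 32 arrays. With LPS the probes shared the direction, and the size of the Ptges response is not settled by these arrays. When zVAD was added to LPS in WT, the dimmer probe fell to 12.57 and 12.08 (-2.19 ± 0.86, adjusted p = 0.0562). The tested probe changed by -0.11 there. The zVAD change of the dimmer probe was lower with LPS than without it by -3.70 ± 1.22 (adjusted p = 0.0369), against -0.17 for the tested probe.

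IFNβ+zVAD raised Ptges in WT on both probes. The tested probe gave 15.10 and 16.06 (0.86 ± 0.29, adjusted p = 0.0255) and the other 8.46 and 10.51 (2.52 ± 0.86, adjusted p = 0.0274). On the tested probe array 2 carried most of the rise, which was 0.38 without it, and without either array of untreated WT the adjusted p was 0.0864 and 0.0971. zVAD alone left the tested probe at 14.84 and 14.73 in WT (0.06 ± 0.29), while the other probe read 8.26 and 8.69, above both untreated arrays (1.51 ± 0.86, adjusted p = 1.0).

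With Nec-1 in WT only the tested probe passed the test. The tested probe fell from 16.43 and 16.38 with WT LPS+zVAD to 15.23 and 15.83 with Nec-1 added (-0.88 ± 0.29, adjusted p = 0.0285), whereas the other read 12.57 and 12.08 before and 12.78 and 12.80 after (0.46 ± 0.86, adjusted p = 0.759). The mean of both probes gave -0.21 for this change. Its call was also lost without either WT LPS+zVAD array or array 1 of WT LPS+zVAD+Nec-1, with adjusted p up to 0.26. In Ifnar1-/- the tested probe fell by 0.97 ± 0.29 (adjusted p = 0.0246), and by 0.62 without array 2 of the Nec-1 group (adjusted p = 0.286). The dimmer probe read 12.90 and 13.27 with LPS+zVAD and 11.27 and 7.23 with Nec-1 added, the lower value on array 2. Leaving out either Ifnar1-/- LPS+zVAD array also lost the call of the tested probe (adjusted p = 0.107 and 0.109).

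**Figure D3:**
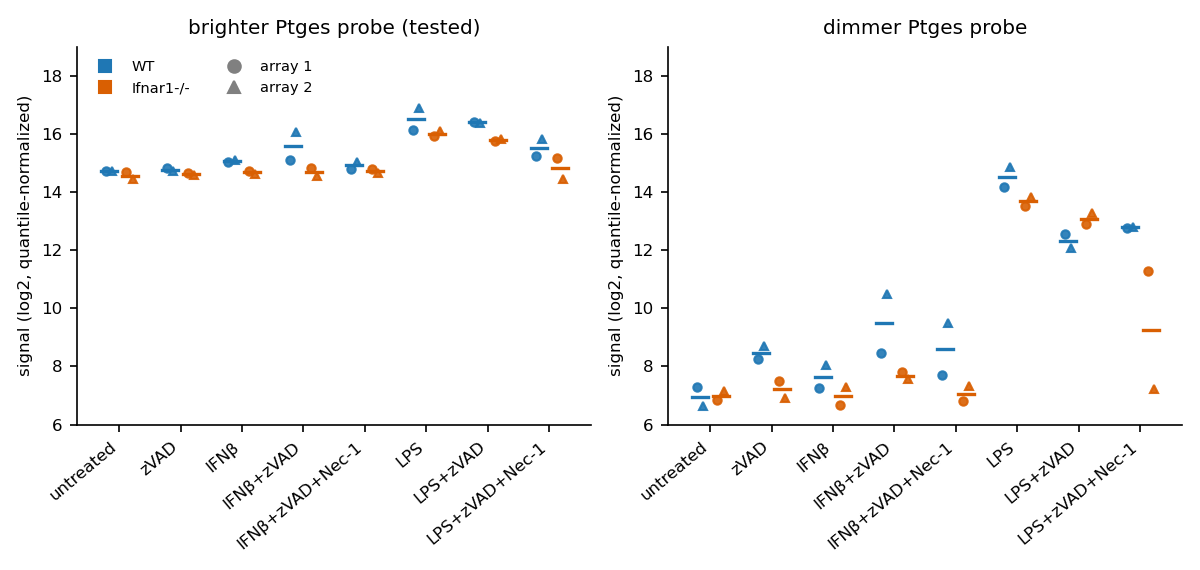
Signal (log2, quantile-normalized) of the 2 Ptges probes on every array, on the same scale, with bars at the means of 2 arrays. Both rise with LPS, from about 14.7 to 16.13 and 16.91 in WT on the brighter probe and from 7.30 and 6.62 to 14.18 and 14.85 on the dimmer one.

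Ptgs1 and Tbxas1, the constitutive cyclooxygenase and thromboxane synthase, went the other way with LPS. Ptgs1 read 13.05 and 12.98 in untreated WT and 11.16 and 10.03 with LPS (-2.42 ± 0.61, adjusted p = 0.00358, and 0.0555 without array 2 of WT LPS). In Ifnar1-/- it read 11.17 and 11.61 untreated and 8.43 and 8.57 with LPS (-2.89 ± 0.61, adjusted p = 0.00193). Tbxas1 read 14.32 and 14.46 in untreated WT and 13.10 and 12.82 with LPS, and fell by 1.43 ± 0.31 in WT (adjusted p = 0.0012). Ifnar1-/- arrays read 14.91 and 15.10 untreated and 13.46 and 13.69 with LPS, and fell by 1.43 ± 0.31 (adjusted p = 0.00262). A second Tbxas1 probe was well above background on 5 of the 32 arrays and was not tested.

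With zVAD alone both genes stayed near untreated, with Ptgs1 at 12.79 and 12.86 and Tbxas1 at 14.09 and 14.33 in WT. With LPS+zVAD, WT Ptgs1 stood at 11.79 and 11.49, above both LPS arrays (1.05 ± 0.61, not called in the main fit). Without both Ifnar1-/- LPS+zVAD+Nec-1 arrays this difference passed (adjusted p = 0.0411), as did that of Tbxas1 (0.60, adjusted p = 0.0385), and so did the differences of both with Nec-1 (-1.14 and -0.60, adjusted p = 0.0319 and 0.0445). IFNβ took Ptgs1 to 11.99 and 11.21 in WT (-1.41 ± 0.61), which was not called in the main fit and passed with the slide as a block (adjusted p = 0.0236). IFNβ+zVAD lowered it by 1.57 ± 0.61 (adjusted p = 0.0493), and the call was lost without array 2 of WT IFNβ+zVAD (-1.09, adjusted p = 0.303) or either untreated WT array (adjusted p = 0.146 and 0.138), or with arrays scaled only by their 75th percentile (-1.42, adjusted p = 0.072). LPS+zVAD lowered Ptgs1 in Ifnar1-/- by 2.23 ± 0.61 (adjusted p = 0.0102) and Tbxas1 by 1.14 ± 0.31 (adjusted p = 0.0107), calls lost without array 2 of untreated Ifnar1-/- or array 1 of Ifnar1-/- LPS+zVAD (adjusted p up to 0.0834 and 0.0814). With the 75th percentile scaling that of Tbxas1 was -0.81 (adjusted p = 0.103). In WT it lowered Tbxas1 by 0.84 ± 0.31 (adjusted p = 0.0326), a call lost without any 1 of the 4 arrays and, at -0.35, with the 75th percentile scaling (adjusted p = 0.432). The difference of Ptgs1 there was -1.37, which was not called in the main fit and passed with the slide as a block (adjusted p = 0.0212). The genotype difference of Ptgs1 in its change with IFNβ+zVAD was 1.87, not called in the main fit. It passed with the slide as a block (adjusted p = 0.0438).

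Platelets also express these genes. Of 6 platelet markers, 4 were well above background on at least 50% of arrays, and their summed signal was in effect that of Pf4, with a median of 15.48 where the next, Ppbp, had 6.76. The sum was 15.13 and 15.47 in untreated Ifnar1-/- cells and 17.04 and 17.32 with LPS. In WT it was 15.90 and 15.50 untreated, 16.18 and 15.60 with LPS, 15.25 and 14.67 with IFNβ and 15.38 and 14.59 with IFNβ+zVAD. It was above untreated with LPS on each slide and below it with IFNβ and IFNβ+zVAD on both WT slides, and its part in the results of Ptgs1 and Tbxas1 was not tested.

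Ptger2 and Ptger4 encode the prostaglandin E2 receptors EP2 and EP4, which raise cyclic AMP. Ptger2 read 11.15 and 11.32 in untreated WT and 9.16 and 10.68 with LPS. With LPS+zVAD it read 6.36 and 7.32, the lowest group of the series, -4.40 ± 0.91 from untreated (adjusted p = 0.0005) and -3.08 ± 0.91 from LPS (adjusted p = 0.013). The latter call was lost without array 2 of WT LPS (adjusted p = 0.159) or array 1 of WT LPS+zVAD (adjusted p = 0.0947). With Nec-1 added Ptger2 read 8.22 and 9.91, a difference of 2.22 ± 0.91. It was not called in the main fit and passed with the slide as a block (adjusted p = 0.00829). The Ifnar1-/- arrays read 10.56 and 10.49 untreated, 8.57 and 8.82 with LPS and 7.94 and 8.24 with LPS+zVAD. The latter was -2.43 ± 0.91 from untreated (adjusted p = 0.0538), and -2.43 ± 0.62 with the slide as a block (adjusted p = 0.00464).

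The WT slides disagreed on Ptger2 with IFNβ. WT IFNβ gave 7.58 on slide 1 and 10.18 on slide 2, IFNβ+zVAD 7.04 and 9.19, and IFNβ+zVAD+Nec-1 7.37 and 9.95, while untreated arrays agreed. All lay below untreated. IFNβ+zVAD differed from untreated by -3.12 ± 0.91 (adjusted p = 0.0114). That call was lost without array 1 of WT IFNβ+zVAD (-2.04) or array 2 of untreated WT (-3.03). IFNβ differed from untreated by -2.36 ± 0.91 (adjusted p = 0.052). It passed with the slide as a block (adjusted p = 0.0047) and without both Ifnar1-/- LPS+zVAD+Nec-1 arrays (adjusted p = 0.0347). The block is a single offset per slide for all treatments, so it does not describe a disagreement seen in only some of them. In Ifnar1-/- IFNβ gave 10.56 and 10.52, a log2 difference of 0.01 ± 0.91. The change with IFNβ differed between the genotypes by 2.37 ± 1.29 (adjusted p = 0.226), and by 2.37 ± 0.88 with the slide as a block (adjusted p = 0.0467).

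Ptger4 was highest with zVAD alone in WT, at 11.41 and 11.44 against 10.48 and 10.10 untreated. That difference of 1.13 ± 0.25 did not pass over all genes (adjusted p = 0.241, 95% interval 0.60 to 1.67). In Ifnar1-/- zVAD gave 10.28 and 9.91 against 9.65 and 9.83 untreated (0.35 ± 0.25, adjusted p = 1.0). LPS raised Ptger4 by 0.76 ± 0.25 in WT, to 11.18 and 10.92 (adjusted p = 0.0216, and up to 0.186 without array 2 of untreated WT or array 1 of WT LPS). In Ifnar1-/- LPS raised it by 0.97 ± 0.25 (adjusted p = 0.00844, and 0.0717 or 0.0606 without array 1 of untreated or of LPS).

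Added to LPS, zVAD lowered Ptger4 in both genotypes. WT LPS+zVAD gave 10.03 and 10.25 (-0.91 ± 0.25, adjusted p = 0.0085), and Ifnar1-/- LPS+zVAD 9.53 and 9.75, against 10.75 and 10.66 with LPS (-1.07 ± 0.25, adjusted p = 0.0124). The WT call was lost without array 1 of either group (adjusted p up to 0.0653), and the Ifnar1-/- call without array 1 of either group or array 2 of LPS (up to 0.149). In WT the change with zVAD was lower with LPS than without it by -2.05 ± 0.36 (adjusted p = 0.000668), and the within-slide values were -2.09 and -2.01. Nec-1 added to IFNβ+zVAD took Ptger4 from 10.33 and 10.44 to 8.68 and 9.26 in Ifnar1-/- (-1.41 ± 0.25, adjusted p = 0.00644, and up to 0.145 without array 2 of IFNβ+zVAD or array 1 of IFNβ+zVAD+Nec-1). In WT it read 10.62 and 9.97 before and 9.52 and 9.55 after (-0.76 ± 0.25, adjusted p = 0.92). The difference between the genotypes in this change was not tested.

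**Figure D4:**
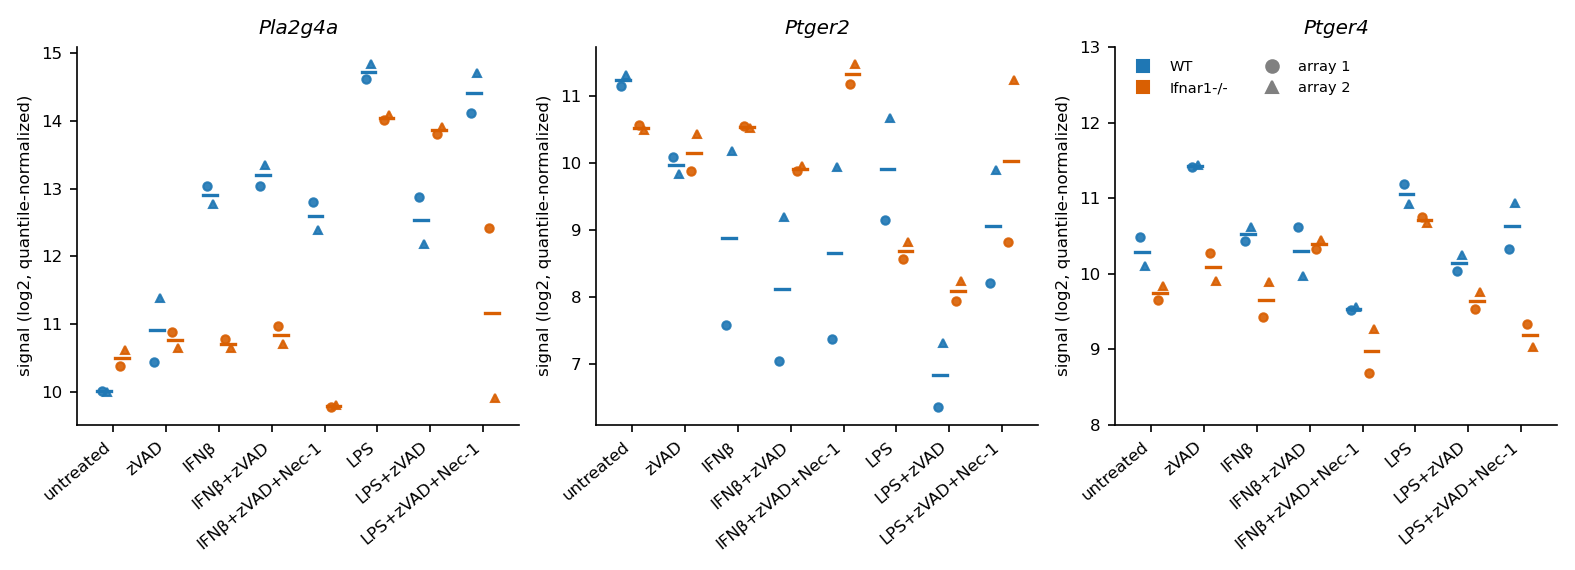
Signals (log2, quantile-normalized) of Pla2g4a, Ptger2 and Ptger4 on every array, with bars at the means of 2 arrays and vertical scales that differ between the panels. In WT all 3 genes are lower with LPS+zVAD than with LPS, with Ptger2 at 6.36 and 7.32, and Ptger4 is highest with zVAD alone at 11.41 and 11.44.

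Alox5 and Alox5ap, the 5-lipoxygenase and its partner FLAP, fell with LPS. Alox5 read 8.70 and 10.01 in untreated WT, 8.02 and 7.43 with LPS and 7.19 and 7.16 with LPS+zVAD. Its log2 difference was -1.63 ± 0.46 with LPS (adjusted p = 0.00751) and -2.18 ± 0.46 with LPS+zVAD (adjusted p = 0.000546). The LPS call was lost without array 2 of untreated WT (-0.97, adjusted p = 0.169) or array 2 of WT LPS (adjusted p = 0.0718). In Ifnar1-/- it read 8.45 and 8.30 untreated and 7.07 and 7.35 with LPS (-1.16 ± 0.46). This was not called in the main fit and passed with the slide as a block (adjusted p = 0.0375). LPS+zVAD lowered it by 1.27 ± 0.46 in Ifnar1-/- (adjusted p = 0.0454), a call lost without any 1 of the 4 arrays. With IFNβ+zVAD in WT Alox5 was called lower (-1.29). That call was lost with no filter on dim probes (adjusted p = 0.0515) or with the groups compared fitted alone (adjusted p = 0.128). The difference was -0.63 without array 2 of untreated WT.

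Neutrophils carry much Alox5, and 8 of the 8 neutrophil markers were well above background on at least 50% of arrays. In the summed signal of these markers the brightest, S100a9 and S100a8 (medians 14.72 and 13.45), weigh most, whereas Ly6g had a median of 5.97. This sum was 13.49 to 14.78 on the arrays of WT slide 1, 15.00 to 15.56 on WT slide 2 and 15.66 to 16.83 on the Ifnar1-/- slides. It was 14.18 and 15.28 in untreated WT, 14.78 and 15.56 with LPS, 14.16 and 15.25 with IFNβ and 14.13 and 15.30 with IFNβ+zVAD. WT slide 2 held the higher Alox5 value in untreated cells and the lower one with LPS, 7.43 against 8.02. Untreated Ifnar1-/- arrays gave sums of 16.03 and 16.03 and Alox5 signals of 8.45 and 8.30. The part of neutrophils in the results was not tested.

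Alox5ap read 16.78 and 16.97 in untreated WT and 15.78 and 15.10 with LPS (-1.43 ± 0.26, adjusted p = 0.000264). Ifnar1-/- arrays read 16.05 and 16.51 untreated and 14.99 and 15.07 with LPS (-1.25 ± 0.26, adjusted p = 0.00202). With IFNβ it fell in WT by 0.84 ± 0.26 to 16.19 and 15.88 (adjusted p = 0.0184, and 0.116 or 0.13 without array 2 of untreated WT or of WT IFNβ), and the Ifnar1-/- arrays read 16.24 and 16.58. The genotype difference in the change with IFNβ was 0.97, not called in the main fit, and it passed with the slide as a block (adjusted p = 0.00943). The sizes for this bright probe depended on the scaling. When arrays were scaled only by their 75th percentile, the WT difference was -0.37 with IFNβ (adjusted p = 0.478) and -0.10 with LPS+zVAD (adjusted p = 0.82), and neither passed. With IFNβ+zVAD in WT it was -0.92 in the main fit (adjusted p = 0.00968) and -0.43 under that scaling (adjusted p = 0.385). In Ifnar1-/- the change was -0.88 with LPS (adjusted p = 0.0666) and -0.61 with LPS+zVAD (adjusted p = 0.207) under that scaling.

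Ltc4s, which encodes the synthase of leukotriene C4, was not called in any of the 25 comparisons. It ranged from 10.58 to 12.33. The WT arrays read 12.12 for the 1 untreated array, since the spot of the other was marked as an outlier and dropped, and 11.66 and 10.65 with LPS. Its difference with LPS in WT was -0.96 ± 0.47 against that single array. With the slide as a block it was -0.60 ± 0.24 (adjusted p = 0.0489) and with IFNβ -0.63 ± 0.24 (adjusted p = 0.043). Mast cells and basophils are known for Ltc4s, and of 8 markers of those cells Cma1, Ms4a2 and Fcer1a were well above background on no array. Tpsb2 was so on 32 arrays, Prss34 on 30, Mcpt4 on 25, Cpa3 on 13 and Mcpt8 on 7. Their part in the Ltc4s signal was not tested.

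**Figure D5:**
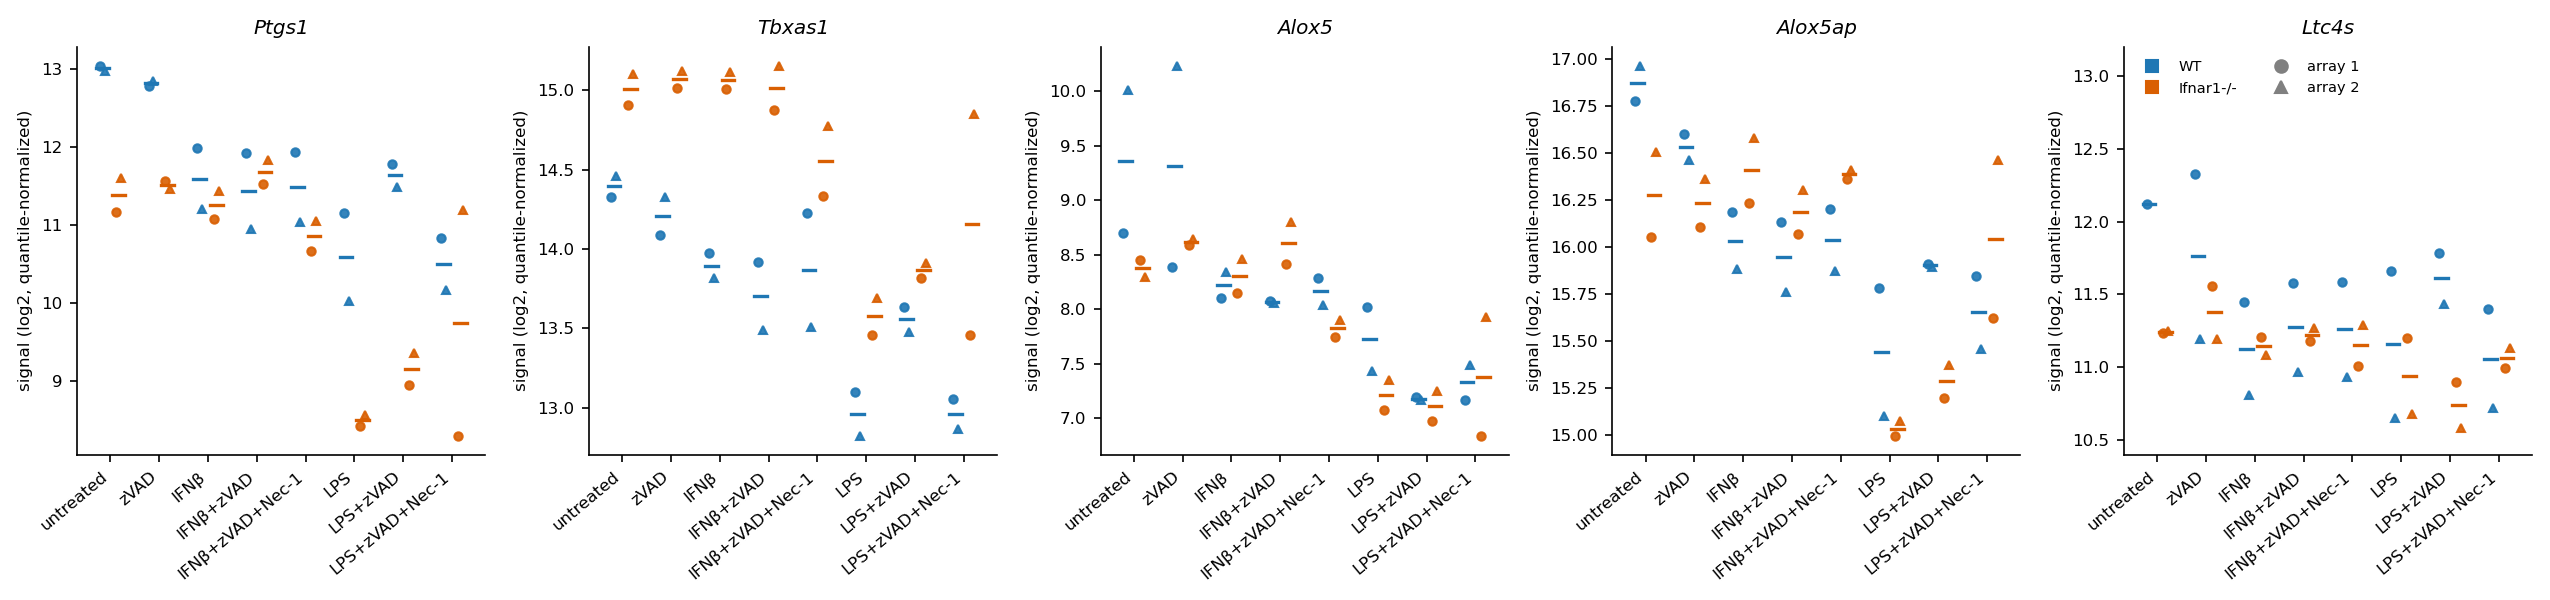
Signals (log2, quantile-normalized) of Ptgs1, Tbxas1, Alox5, Alox5ap and Ltc4s on every array, with bars at the means and vertical scales that differ between the panels. Ptgs1, Tbxas1, Alox5 and Alox5ap are lower with LPS than untreated in both genotypes, and array 2 of Ifnar1-/- LPS+zVAD+Nec-1 lies well above array 1 in those 4 panels.

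The genes whose 16 group means followed each member most closely were found by Pearson correlation over all genes tested. For Ptgs2 they were Tnf (0.985), Tnfaip3 (0.985) and Cflar (0.984), and for Pla2g4a Cst7, Hnrnpd and Gpd2 (0.972 to 0.97). For Ptges they were Rab11fip1, Srgn and Lypd5, with the highest at 0.949. Ptgs1 was followed by Slc9a9 (0.973), 1110035M17Rik and Hpgd, the gene of the enzyme that inactivates prostaglandins (0.955). Tbxas1 was followed by Syngr1 (0.988), Echdc3 and Pianp, and Ptger2 by Ttc30a1 (0.963), Golph3l and Thbd. Ptger4 had no close neighbour, with Ifnar1 highest at 0.846, then Lpcat2 and Tmem176b. Alox5 was followed by Anapc13 (0.944), 6330522J23Rik and Gpr162, Alox5ap by Fcgrt (0.974), 2210013O21Rik and Smpdl3a, and Ltc4s by Use1 (0.955), Aldoc and Gm5093. The points share arrays and slides, and the correlations are descriptions over 16 means.

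Around these members, a wider list held 43 tested genes of eicosanoid release, synthesis, turnover, transport and reception. By limma, zVAD alone changed 0 of the 43 in either genotype. At an unadjusted p under 0.05 there were 4 in WT and 0 in Ifnar1-/-, beside 901 and 61 of the 16033 genes. Added to IFNβ it changed 0 in either, with 3 and 0 at an unadjusted p under 0.05, beside 637 and 370 of all genes. Added to LPS it changed 14 in WT, 8 higher and 6 lower, and 6 in Ifnar1-/-, 3 higher and 3 lower, beside 34.6% and 8.25% of all genes, so the WT share was near that of all genes. The median log2 difference of the list in WT was 0.12, against -0.04 over all genes. LPS alone changed 21 of the 43 in WT, 7 higher and 14 lower, beside 41.2% of all genes. Nec-1 added to LPS+zVAD in WT changed 9 of the 43, 4 higher and 5 lower, beside 28.5% of all genes.

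Of 10 genes that release fatty acids from lipids, 4 were higher with LPS+zVAD than with LPS in WT. In this comparison, to which the class counts here and in the next paragraph belong, 34.6% of all genes changed. Pla2g15, the lysosomal phospholipase, read 10.56 and 11.38 with LPS and 13.34 and 14.57 with zVAD added (2.99 ± 0.42, adjusted p = 2.66e-05), so it returned to about the untreated 13.90 and 14.21. The secreted phospholipases Pla2g5 (3.04), Pla2g12a (2.04) and Pla2g2e (1.30) were also higher, and Pla2g6 was lower (-1.55). Among 11 prostanoid genes, Hpgds, a prostaglandin D2 synthase, rose from 10.13 and 10.15 to 12.13 and 13.13 (2.49 ± 0.36, adjusted p = 3.63e-05), and by 2.70 ± 0.36 in Ifnar1-/- (adjusted p = 0.000137). Ptges2 fell by 1.88.

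Of 11 genes of lipoxygenases and leukotriene turnover, Aloxe3 (2.16) and Lta4h, the leukotriene A4 hydrolase (0.62), were higher, and Dpep2 was lower (-0.76). Among 8 receptor genes, Cysltr1, a receptor of cysteinyl leukotrienes, fell from 12.77 and 13.30 to 10.72 and 9.85 (-2.75 ± 0.34, adjusted p = 6.05e-06), and by 1.57 ± 0.34 in Ifnar1-/- (adjusted p = 0.00658). Cysltr2 was lower (-0.98) and Ptger3 higher (1.24). Of 3 transporters, Abcc4, which exports prostaglandins, fell from 11.52 and 11.86 to 9.92 and 8.56 (-2.45 ± 0.39, adjusted p = 9.39e-05). Among those changed by Nec-1 on LPS+zVAD in WT, Pla2g15 moved by -2.24, Hpgds by -1.75 and Cysltr1 by 1.70, each past the test (adjusted p = 0.000552, 0.00119 and 0.000866).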

How the data were processed

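RNA of 32 BMDM samples was labelled with Cy3 and hybridised to 1-colour Agilent mouse arrays. The deposited scanner files hold spot intensities that the authors obtained with Agilent Feature Extraction, background-subtracted and detrended within the array. The authors also deposited a table of log2 values that they filtered and quantile-normalized with limma, and it served here as an alternative. The array number limits the precision, and no column of another sample was present.

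From the scanner files, spots marked as outliers were dropped (130 to 499 an array), log2 signals of the spots of a probe were averaged and arrays were quantile-normalized. Probes well above background on at least 50% of arrays were kept, 21457 of them, and the brightest probe of each gene was tested. Per array, 45.4% to 78.3% of probes were well above background and 0 spots were saturated. Means of the 16 groups were fitted with limma 3.58.1 in R 4.3.3 with 16 residual degrees of freedom, and p-values were adjusted by Benjamini-Hochberg over 16033 genes. The fit was tested on simulated data. An interval is a 95% interval of the fit.

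Replicate numbers mark slides. Differences between array 1 and array 2 correlated between groups in all 28 pairs of groups in WT (0.317 to 0.669) and all 28 in Ifnar1-/- (0.167 to 0.583), so a second fit held the slide as a block. Other alternatives were a shift to a common 75th percentile, normexp background correction with an offset of 50, no filter on dim probes, the mean of a gene's probes, fits of the groups compared alone, and fits without single arrays or without both Ifnar1-/- LPS+zVAD+Nec-1 arrays. All 10 members are named, and of the wider list each gene called when zVAD was added to LPS in WT. The members and lists were chosen with earlier results of these data known. Promoters came from RefSeq (GRCm38.p6), where 9 of the 10 members had an entry and Alox5ap had none, and probe positions came from the scanner files (mm9). The columns of the authors hold no comparisons.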

Additional observations from a re-analysis of the deposited data

Results flagged for a closer look

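On the tested probes, the test of the difference between 2 changes passed for 5 results. Between the genotypes it passed for 2 of the 10 members with IFNβ (18.8% of all genes) and 1 with IFNβ+zVAD (19.3%). In WT it passed for 2 in the zVAD change with LPS against without (21.5%). Each share of members was near or below that of all genes, and no member passed in the other comparisons of this kind. The change with IFNβ differed between Ifnar1-/- and WT by -2.67 on the log2 scale for Pla2g4a (adjusted p = 0.011 with limma) and by -7.52 for Ptgs2 (adjusted p = 0.0144). For Ptgs2 the 2 Ifnar1-/- IFNβ arrays and 1 of the 2 untreated ones were not well above background, so that value rests in part on signals at background. The change with IFNβ+zVAD differed by -2.84 for Pla2g4a (adjusted p = 0.00738). In WT the change with zVAD was lower with LPS than without it by -3.09 for Pla2g4a (adjusted p = 0.00399) and by -2.05 for Ptger4 (adjusted p = 0.000668). The dimmer Ptges probe, which was not the tested one, also passed there in the fit over all retained probes (-3.70, adjusted p = 0.0369). Groups of 2 arrays are too small to test 1 array as an outlier.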

How the results depend on the processing

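Of 95 results, 84 kept their direction and side of the threshold with the 75th percentile shift, 86 with normexp, 91 without the filter, 94 with the mean of probes, 74 with the groups compared alone and 79 with the slide as a replicate block, and 78 of 88 with the authors' table, which has empty cells. The 75th percentile shift moved the median log2 difference of all genes with LPS+zVAD in WT from -0.15 to 0.12. The causes of the changes below were not tested, except that groups fitted alone leave fewer samples.

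With the block, 7 members were called for IFNβ in WT in place of 3 (49.2% of all genes), 4 for Nec-1 on LPS+zVAD in WT in place of 2 (42.3%) and 5 in Ifnar1-/- in place of 3 (35%). With the block, 4 differed between the genotypes with IFNβ in place of 2 (33.8%) and 5 with IFNβ+zVAD in place of 1 (35.2%). Besides the calls that the report gives with the block, it added in WT Alox5 with IFNβ (-1.14, adjusted p = 0.0335), Tbxas1 with IFNβ+zVAD (-0.69, 0.0327) and Ltc4s with Nec-1 on LPS+zVAD (-0.55, 0.0318). In Ifnar1-/- it added Ptger2 with LPS (-1.83, 0.0275), Ltc4s with LPS+zVAD (-0.50, 0.0477), and Ptger2 (1.94, 0.0234) and Alox5ap (0.76, 0.00521) with Nec-1 on LPS+zVAD. It also added the genotype differences with IFNβ+zVAD of Ptger2 (2.51, 0.0354) and Alox5ap (0.83, 0.0217), and Alox5ap for zVAD with LPS minus without (0.80, 0.0241). Genes called with zVAD alone in WT went from 1 to 35 with the block and 31 without both Ifnar1-/- LPS+zVAD+Nec-1 arrays, and those of IFNβ+zVAD against IFNβ from 0 to 21 and 4.

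Without those 2 arrays the members called were 6 for IFNβ in WT (38.5% of all genes), 5 for LPS+zVAD against LPS in WT (38.1%), 4 for Nec-1 on LPS+zVAD in WT (32%), 1 for zVAD in WT (0.193%), 3 for Nec-1 on IFNβ+zVAD in Ifnar1-/- (3.1%) and 3 for the genotype difference with IFNβ+zVAD (23.6%). Ptgs2 with zVAD in WT was then 5.05 with an adjusted p of 0.0279, whereas with the block it was not called. Leaving out array 2 alone, chosen after seeing the data, gave the same 6, 5, 4, 1, 3 and 3, and the same 5.05. The genotype difference with IFNβ+zVAD held 2 calls with the 75th percentile shift (16% of all genes), normexp or the authors' table, and 3 with the groups alone. Nec-1 on LPS+zVAD in WT held 1 with normexp or the mean of probes and 0 with the authors' table or the groups alone. The groups alone gave 3 for IFNβ+zVAD in WT, 0 for Nec-1 on either mixture in Ifnar1-/- and 1 for the genotype difference with LPS and with LPS+zVAD. The share of all genes was not counted with normexp, the authors' table, the mean of probes, the groups alone or single arrays left out. The member counts of those fits therefore cannot be set against it.

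Ptgs2 differences near 0 changed sign. The genotype difference with LPS was -0.027 with normexp and -0.51 to 0.85 without single arrays, and with LPS+zVAD -0.066 with the 75th percentile shift and -0.31 to 1.05. Ptgs2 with IFNβ in Ifnar1-/- was -0.0029 with normexp, -0.0079 with the authors' table and -0.17 to 0.37. Without single arrays, members called ranged from 0 to 1 for Nec-1 on LPS+zVAD in WT, 2 to 7 in Ifnar1-/-, 0 to 1 for Nec-1 on IFNβ+zVAD in Ifnar1-/-, 1 to 3 for LPS+zVAD against LPS in WT and 0 to 1 in Ifnar1-/-. They ranged from 3 to 6 for LPS+zVAD in Ifnar1-/-, 2 to 5 for IFNβ+zVAD in WT, and 1 to 2 for the genotype differences with IFNβ and with IFNβ+zVAD.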
